A study of Mus musculus with 2 samples.

Results

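The genes described here are 10 genes of the regulatory T cell (Treg) program, namely Foxp3, Ikzf2, Ikzf4, Il2ra, Icos, Tnfrsf4, Tnfrsf18, Tnfrsf9, Il10 and Il1rl1. They were chosen by name as known Treg genes, and they are 10 of the 32285 genes in the count matrices. The levels were read in T cells, natural killer (NK) cells and dendritic cells (DC) of each library. A T cell was a barcode with at least 1000 unique molecular identifiers (UMIs, each standing for 1 captured transcript), at most 20% mitochondrial UMIs and at least 2 UMIs of Cd3d, Cd3e and Cd3g, the CD3 chains of the T cell receptor complex. T cells with at least 1 UMI of Cd8a or Cd8b1 are called CD8-positive and the others CD8-negative.

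Droplet-based single-cell RNA sequencing was applied to orthotopic RM-1 tumors, which grow from a murine prostate cancer (PCa) cell line injected into the prostate of C57BL/6 mice. RM-1 cells are intrinsically resistant to enzalutamide (ENZ), an androgen receptor inhibitor. The study compared a vehicle-treated tumor (control) with an ENZ-treated tumor, with 1 library from 1 mouse in each group, both labelled wild-type, and the ages of the mice are not given in the sources used here. Per the study's methods, immune cells were enriched during sorting, so shares of cells do not measure the makeup of the tumor. The labels name the cells as prostate cancer cells, and keratin-positive cells without the immune marker Ptprc were 2392 of the control and 2978 of the ENZ cells. The matrices held 170830346 UMIs in the control and 162030149 in ENZ, of which 12253 and 10271 barcodes passed the limits on UMIs and mitochondrial reads. With 1 mouse per group there is no replicate check, and no p-value was computed. All intervals below are 95% intervals, and they cover counting error only.

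Tregs are CD4+ T cells that restrain other immune cells. The transcription factor Foxp3 is required for their identity, and a high level of the high-affinity interleukin-2 receptor lets them take up IL-2 and survive on it. Tregs of tumors often carry costimulatory receptors of the TNF receptor superfamily, and many of these genes are also switched on in activated conventional T cells, in NK cells and in innate lymphoid cells, so that no single member besides Foxp3 marks Tregs in mice.

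On the GRCm38 build, Foxp3 lies on the plus strand at chrX:7573644-7595245 and Il2ra on the plus strand at chr2:11642807-11693193. Ikzf2 (chr1:69531214-69687245) and Ikzf4 (chr10:128630843-128645991) lie on the minus strand. The other members are on the plus strand, with Icos at chr1:60977927-61000320, Il10 at chr1:131019845-131024974, Il1rl1 at chr1:40429570-40465415 and Tnfrsf9 at chr4:150914562-150946102. Tnfrsf4 (chr4:156013843-156016612) and Tnfrsf18 (chr4:156026164-156028895) are neighbours separated by 9551 bases. Foxp3 shares bases and strand with Flicr, a noncoding gene, and overlaps Ppp1r3f and Ccdc22 on the other strand, and Tnfrsf9 overlaps Camta1 on the other strand. Ikzf2 holds Gm29112 and Gm28112 on its own strand, and on the other strand Gm29114 overlaps Ikzf2, Gm16008 overlaps Tnfrsf18 and Gm26876 overlaps Ikzf4. How reads in such overlaps were assigned is not given in the sources used here, so those counts are uncertain to that extent.

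Foxp3, Il2ra and Il1rl1 were the members at least 2-fold higher in CD8-negative than in CD8-positive T cells of both libraries (below), and the bases upstream of their annotated start sites are shown for that reason. The sequences are from RefSeq on GRCm38.p6, whose promoter table held 6 of the 10 members, and they are printed 5′ to 3′ on the plus strand. Capitals mark GGAAA or its reverse complement TTTCC, the core letters bound by NFAT, a factor activated by T cell receptor signals. The Foxp3 stretch (chrX:7579426-7579566) ends 109 bases before the start site because an annotated exon begins there, while those of Il2ra (chr2:11642542-11642791) and Il1rl1 (chr1:40429320-40429569) reach the start site.
Foxp3: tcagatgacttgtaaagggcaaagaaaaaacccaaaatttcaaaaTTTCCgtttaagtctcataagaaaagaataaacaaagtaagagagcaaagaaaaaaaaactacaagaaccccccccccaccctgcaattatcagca
Il2ra: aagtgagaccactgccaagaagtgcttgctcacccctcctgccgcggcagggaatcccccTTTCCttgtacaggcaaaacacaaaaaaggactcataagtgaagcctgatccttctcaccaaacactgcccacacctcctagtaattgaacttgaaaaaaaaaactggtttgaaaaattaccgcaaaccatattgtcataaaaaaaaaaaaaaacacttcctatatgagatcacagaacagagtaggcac
Il1rl1: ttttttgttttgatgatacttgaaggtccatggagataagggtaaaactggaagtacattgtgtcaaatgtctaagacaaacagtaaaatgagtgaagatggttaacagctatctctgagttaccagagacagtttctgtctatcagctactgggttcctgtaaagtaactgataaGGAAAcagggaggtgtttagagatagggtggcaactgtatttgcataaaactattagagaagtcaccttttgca
Each stretch held the NFAT letters once, and 55.6% of the 32851 promoters in the table held them on either strand in the 250 bases before the start, so their presence does not set these genes apart. The letters of AP-1 (TGANTCA, in 6.75% of promoters), STAT5 (TTCNNNGAA, in 7.02%), RUNX factors (TGTGGT, in 14.0%), CREB (TGACGTCA, in 1.55%) and forkhead factors (GTAAACA, in 3.17%) were searched in the same way and were not found in these 3 stretches. RefSeq lists a second start site for Foxp3 and for Il1rl1, whose windows are not printed, and there the STAT5 letters occurred once for Foxp3 and the forkhead and RUNX letters once each for Il1rl1. A match of letters is not a bound site.

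The T cell gate gave 571 CD8-negative and 128 CD8-positive T cells in the control, and 632 and 185 in ENZ. The 2 libraries differed in what else the CD8-negative gate held. In the control, 74 cells with over 20000 UMIs carried 51.9% of the gate's UMIs, against 34 cells and 25.5% in ENZ. The 7 monocyte and macrophage markers, led by Lyz2, summed to 1394 counts per 1000000 UMIs (CPM) in the control gate and 619 in ENZ, the 5 neutrophil markers, led by S100a9, to 665 and 171, and the 4 cancer cell markers, led by Krt8, to 611 and 259, with no marker of these lists at 0. Cells with more than 5 UMIs of Lyz2 plus Krt8 made up 23.3% of the control gate and 9.81% of the ENZ gate, whereas the automatic doublet caller marked 8.41% and 7.59%. The 9 T cell markers summed to 1050 CPM in the control and 1680 in ENZ.

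The lymphocytes inside the CD8-negative gate also differed. A Cd4 UMI was found in 18.9% of control and 36.7% of ENZ cells, and at least 2 UMIs of the NK cell genes Ncr1, Klrb1c and Klre1 in 15.8% and 6.33%. The 6 NK markers together stood at 364 CPM in both libraries, led by Gzma. Genes of type 2 innate lymphoid cells, which Th2 cells and Tregs partly share, summed to 470 CPM in the control and 1213 in ENZ, with all 6 listed genes detected and Rora the most abundant (274 and 815 CPM). Summed CPM cannot tell fewer cells of a type from less RNA per cell. Ratios of the members in CD8-negative T cells are therefore followed by ratios over other choices of cells, and the part of these markers in the ratios was not tested beyond those values. Of the barcodes passing the quality limits, 39 were shared by the libraries, 1 of them in the T cell gate of both.

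Foxp3, the lineage factor of Tregs, had 71 UMIs in CD8-negative T cells of the control and 146 in ENZ, or 11.4 and 34.0 CPM. The ENZ to control ratio was 2.97 (interval 2.22 to 4.01). After every cell was thinned to 1000 UMIs, which gives all cells the same depth, Foxp3 was detected in 2.63% of control and 5.06% of ENZ cells, a difference of 2.44 percentage points (0.14 to 4.75). Without thinning the shares were 9.46% and 14.4%. The lower bound for the difference in thinned shares lies close to 0. That difference was 2.19 points (-0.59 to 4.87) without the cells with more than 5 UMIs of Lyz2 plus Krt8, 2.33 points (-0.20 to 4.83) without cells over 20000 UMIs and 0.91 points (-5.84 to 6.20) among cells with a Cd4 UMI, and these 3 intervals include 0. In cancer cells, taken as cells that lack the gene, thinned shares were 0.04% and 0.03%, at median depths of 21893 and 22516.5 UMIs against 4896 and 4415 in the CD8-negative T cells. Droplets with under 100 UMIs, a measure of free RNA, held Foxp3 at 1.57 CPM in the control and 4.69 in ENZ, below the T cell level of the same library.

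The size of the Foxp3 ratio depended on which CD8-negative cells were counted. It was 1.95 (1.42 to 2.70) without the cells rich in Lyz2 or Krt8 and 2.04 without the cells over 20000 UMIs. Counted per 100 CD3 UMIs, Foxp3 went from 2.13 to 4.35, a ratio of 2.05. Among CD8-negative cells with a Cd4 UMI, it was 1.20 (0.80 to 1.81), an interval that includes equal levels. In each of these counts ENZ was the higher library.

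Ikzf2 encodes Helios, an Ikaros-family factor of Tregs that is also present in some NK and innate-like T cells. It had 427 CPM in the control and 806 in ENZ (ratio 1.89, 1.80 to 1.99), and thinned shares of 33.6% and 43.4%. Its ratio came down to 1.23 without the cells rich in Lyz2 or Krt8 and 1.18 among cells with a Cd4 UMI. Ikzf4, which encodes the related factor Eos, a Foxp3 partner in gene silencing, had 13 CPM in the control and 42.6 in ENZ (3.27, 2.50 to 4.30). The Ikzf4 ratio stayed at 2.33 without the cells rich in Lyz2 or Krt8 and was 1.71 among cells with a Cd4 UMI. Of the 3 transcription factors, Ikzf2 had the smallest ratio under each of these cell choices, although among cells with a Cd4 UMI Foxp3 (1.20) lay close to it.

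Il2ra encodes CD25, the alpha chain that gives the IL-2 receptor its high affinity. CD8-negative T cells held it at 70.4 CPM in the control (437 UMIs) and 204 in ENZ (878 UMIs), a ratio of 2.90 (2.59 to 3.27). The thinned share of cells was 11.9% in the control and 17.1% in ENZ, a difference of 5.18 points (1.08 to 9.24), against 0% and 0.07% in cancer cells. Il2ra was higher in ENZ under every cell choice tried. The ratio was 1.75 without the cells rich in Lyz2 or Krt8, 2.0 per CD3 UMI and 2.16 among cells with a Cd4 UMI. The partner chains Il2rb and Il2rg, which carry the signal, were also past 1.5-fold, at 141 and 275 CPM (1.96) and at 86.5 and 135 CPM (1.56). Without the cells rich in Lyz2 or Krt8 neither was, at 1.23 (1.12 to 1.35) for Il2rb and 1.08 (0.944 to 1.24) for Il2rg. Among cells with a Cd4 UMI both were, at 1.97 (1.65 to 2.37) for Il2rb and 2.16 (1.70 to 2.77) for Il2rg. Il2, the ligand, had 6 UMIs in each library and was too rare to compare.

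Icos, a costimulatory receptor of the CD28 family, had 99.0 CPM in the control and 208 in ENZ (2.1, 1.90 to 2.34) in CD8-negative T cells. Tnfrsf4 (OX40) had 57.0 and 118 CPM (2.07, 1.80 to 2.38). Tnfrsf18 (GITR) had 75.5 and 142 CPM (1.88, 1.66 to 2.12), and Tnfrsf9 (CD137) had 170 and 349 CPM (2.05, 1.89 to 2.22). These 4 costimulatory receptors lay close together, at 1.88 to 2.1. Their thinned shares were higher in ENZ by 6.75 points for Icos, 5.59 for Tnfrsf4, 4.45 for Tnfrsf18 and 5.39 for Tnfrsf9. Without the cells rich in Lyz2 or Krt8 the ratios were 1.31 for Icos, 1.48 for Tnfrsf4, 1.20 for Tnfrsf18 and 1.29 for Tnfrsf9, so none of the 4 remained past 1.5-fold. Among cells with a Cd4 UMI, Icos alone of the 4 was past it, at 1.70.

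Il10 encodes an anti-inflammatory cytokine made by Tregs, macrophages and other cells. In CD8-negative T cells it had 115 and 113 UMIs, or 18.5 CPM in the control and 26.3 in ENZ (1.42, 1.09 to 1.86), the only member under 1.5-fold. Free RNA held Il10 at 17.0 and 21.8 CPM, close to those T cell levels, and its thinned shares of 2.28% and 3.01% stood against 0.67% and 0.34% in cancer cells. Per 100 CD3 UMIs it was 3.45 in the control and 3.37 in ENZ, and among cells with a Cd4 UMI its ratio was 0.81, so Il10 gave no direction that held across these counts.

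Il1rl1 encodes ST2, the receptor of IL-33, found on tissue Tregs, Th2 cells, type 2 innate lymphoid cells and mast cells. It had the largest ratio of the 10 members in CD8-negative T cells, with 98 UMIs (15.8 CPM) in the control and 324 (75.4 CPM) in ENZ, a ratio of 4.78 (3.8 to 6.06). The thinned share was 1.93% in the control and 6.49% in ENZ, a difference of 4.56 points (2.23 to 6.97), against 0.63% and 0.50% in cancer cells. Free RNA held Il1rl1 at 6.27 CPM in the control and 9.38 in ENZ, below the CD8-negative T cells of the same library. Il1rl1 had the largest ratio of the members in each of the 12 alternative counts, at 3.83 without the cells rich in Lyz2 or Krt8, 3.29 per CD3 UMI and 3.48 among cells with a Cd4 UMI, and the lowest when each cell was weighted equally (2.81, beside 2.48 for Ikzf4). Il33 itself had 9.50 CPM in the control gate and 1.63 in the ENZ gate, a ratio of 0.17. The mast cell markers summed to 7.89 CPM and 1.16 CPM in this gate, lower in ENZ, whereas the type 2 lymphoid genes Il5 (25 and 68 UMIs) and Il13 (10 and 67 UMIs) were higher, and their part in the Il1rl1 ratio was not tested.

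**Figure D1:**
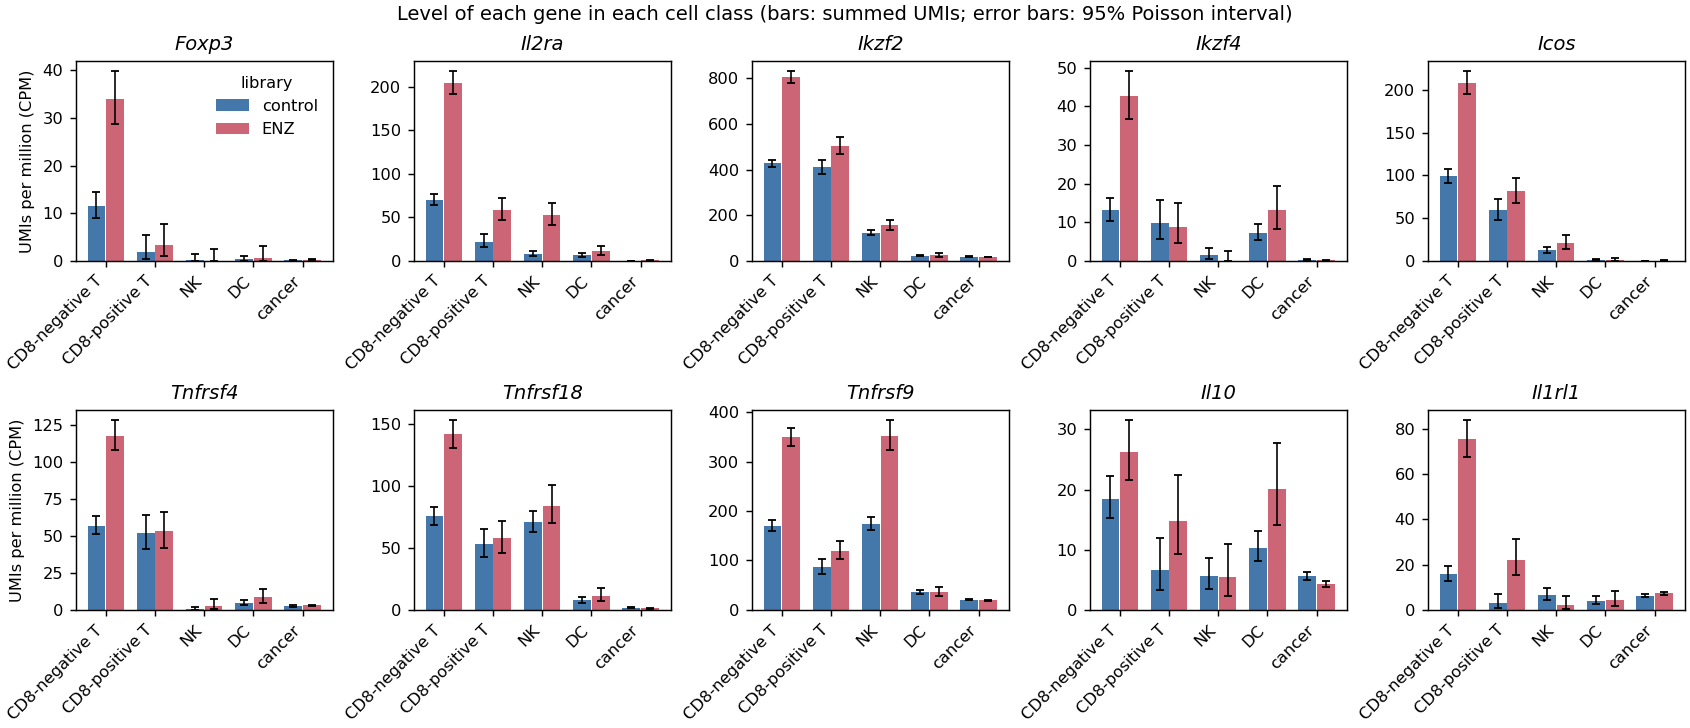
Level of each member in CPM in CD8-negative and CD8-positive T cells, NK cells, DC and cancer cells of the control and ENZ libraries, with bars for the summed UMIs of a library, error bars for 95% Poisson intervals and an axis of its own for each gene. In CD8-negative T cells every member lies higher in ENZ, from Il10 (18.5 and 26.3 CPM) to Il1rl1 (15.8 and 75.4 CPM), and Tnfrsf9 is as high in NK cells (174 and 352 CPM).

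Over the 10 members, 9 were at least 1.5-fold higher in ENZ in CD8-negative T cells and 0 were 1.5-fold lower. Among all 10748 genes with at least 50 UMIs in this gate, 15% were 1.5-fold higher and 14.2% were 1.5-fold lower. The median log2 ratio was 1.06 over the members and 0.06 over all genes. The count depended on which cells entered the sums. It was 4, namely Foxp3, Il2ra, Ikzf4 and Il1rl1, when the cells rich in Lyz2 or Krt8 were left out, when cells over 20000 UMIs were left out, when CD3 UMIs were the denominator and when each cell was weighted equally. It was also 4 among cells with a Cd4 UMI, with Icos in place of Foxp3. Il2ra, Ikzf4 and Il1rl1 were past 1.5-fold in all of these counts. Without the cells rich in Lyz2 or Krt8, 10.5% of all genes were 1.5-fold higher and 6.05% lower. The shares were 11.7% and 7.85% without cells over 20000 UMIs, and 15.7% and 15.8% among cells with a Cd4 UMI. For the CD3 denominator and equal weighting no share over all genes is given here, so those counts are not read against one.

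**Figure D2:**
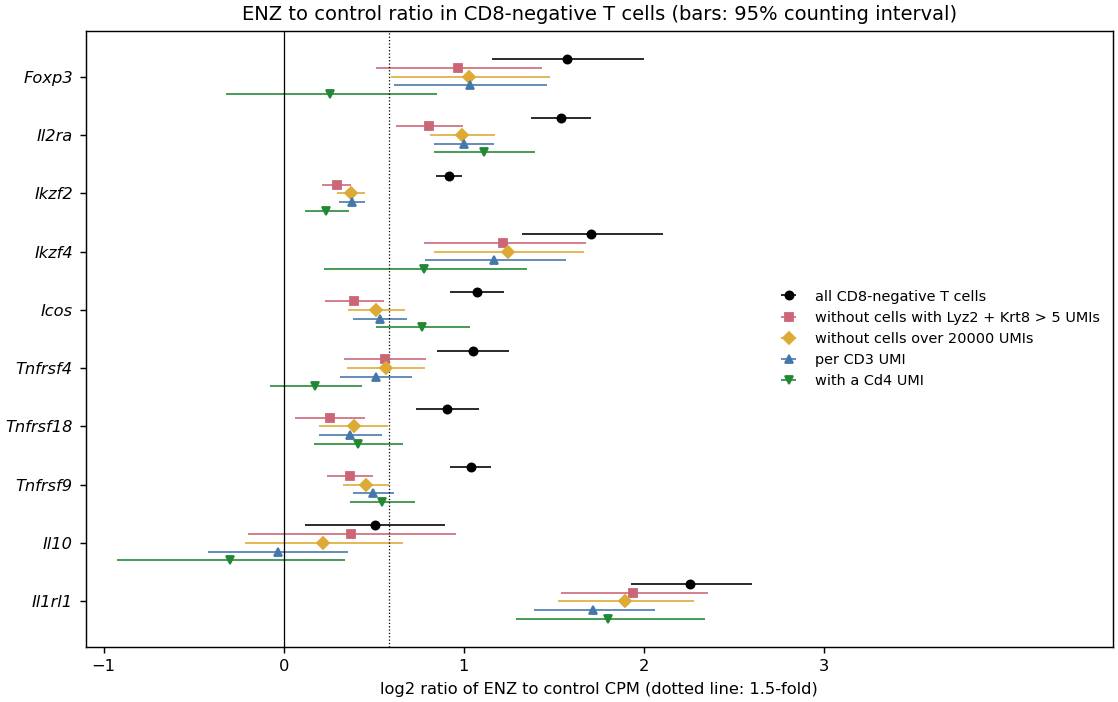
Ratio of ENZ to control on a log2 axis for each member in CD8-negative T cells, from CPM and, for the blue triangles, per CD3 UMI, over all cells and over the cells left by each choice, with 95% counting intervals and a dotted line at 1.5-fold. Il2ra, Ikzf4 and Il1rl1 lie to the right of the dotted line in all 5 counts, and Il10 crosses 1.

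Other genes of the Treg program were also higher in ENZ in CD8-negative T cells. Of 36 such genes, 34 had at least 50 UMIs, and 25 of these were 1.5-fold higher in ENZ and 0 were 1.5-fold lower, against 15% and 14.2% of all genes. Their median log2 ratio was 0.82, and Capg, an actin-capping protein, had an interval below 1. The count came down to 12 of 33 without the cells rich in Lyz2 or Krt8, where 10.5% of all genes were 1.5-fold higher, and to 14 of 34 without cells over 20000 UMIs, where 11.7% were. Among cells with a Cd4 UMI it was 17 of 31, against 15.7% of all genes. Ctla4, the inhibitory receptor that competes for CD28 ligands, had 77.4 and 206 CPM (2.65). Tigit, another inhibitory receptor, had 11.3 and 39.1 CPM (3.47), and Izumo1r, the folate receptor 4 of Tregs, had 13.7 and 42.8 CPM (3.13). Ccr8, a chemokine receptor of tumor Tregs, had 5.31 and 13.3 CPM (2.50). Without the cells rich in Lyz2 or Krt8 these 4 stayed past 1.5-fold, at 1.86 for Ctla4, 2.22 for Tigit, 2.22 for Izumo1r and 1.75 for Ccr8. Among cells with a Cd4 UMI, Ctla4 was at 1.43 (1.22 to 1.67), under 1.5-fold, and the interval of Ccr8 (1.52, 0.84 to 2.85) included 1. Entpd1, the ectonucleotidase CD39, did not pass, at 0.88, nor did Tgfb1 at 1.06. Of the 11 ligands and partner chains, 9 were frequent enough, 2 were higher (Il2rb and Il2rg) and 1 was lower (Il33). Without the cells rich in Lyz2 or Krt8, 0 of 7 were higher and 0 lower, and without cells over 20000 UMIs 0 of 8 were either. Among cells with a Cd4 UMI, 2 of 7 were higher (Il2rb and Il2rg) and 0 lower. Il33 had too few UMIs to be counted under these 3 choices. General T cell genes were higher too, with Cd3e at 87.9 and 169 CPM (1.93) and Cd4 at 25.4 and 109 CPM (4.29). Without the cells rich in Lyz2 or Krt8 their ratios were 1.20 (1.06 to 1.35) for Cd3e and 2.78 (2.27 to 3.44) for Cd4.

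In CD8-positive T cells, 7 of the 10 members were rarer than in CD8-negative T cells of both libraries beyond counting error. The share of all genes that were so is not given here. For Ikzf2, Ikzf4 and Tnfrsf4 the interval of that comparison included equal levels in the control. Foxp3 had 3 UMIs in the control and 5 in ENZ and Ikzf4 had 16 and 13, with thinned Foxp3 shares of 0% in both libraries, where 0 of 128 and 0 of 185 cells, at a limit of 3 counts, allow shares of cells with a Foxp3 UMI of up to 2.34% and 1.62%. Il2ra had 36 UMIs (22.0 CPM) in the control and 87 (58.5 CPM) in ENZ, a ratio of 2.66 (1.79 to 4.05), and it was the 1 of 6 members with at least 50 UMIs that was past 1.5-fold, with 0 lower. Among all 7258 genes, 13.9% were 1.5-fold higher and 12.5% were 1.5-fold lower. The Il2ra ratio in CD8-positive T cells without cells over 20000 UMIs was 1.90 (1.16 to 3.24).

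Of the other members in CD8-positive T cells, the factor Ikzf2 had 409 and 504 CPM (1.23), and the receptors Icos 59.1 and 81.4 CPM (1.38), Tnfrsf18 53.0 and 57.8 CPM (1.09, 0.80 to 1.49) and Tnfrsf9 86.6 and 120 CPM (1.38). Tnfrsf4 had 51.8 and 53.1 CPM (1.02, 0.74 to 1.41), but 73.3 and 38.7 CPM (0.53, 0.34 to 0.81) without cells over 20000 UMIs, so the order of the libraries for Tnfrsf4 changed when those deep cells were left out. Tnfrsf18 likewise turned, to 0.742 (0.52 to 1.07) without those cells and to 0.661 (0.46 to 0.95) without the cells rich in Lyz2 or Krt8. Without the latter, Ikzf2 was at 0.821 (0.73 to 0.92), Tnfrsf4 at 0.637 (0.43 to 0.95) and Tnfrsf9 at 0.958 (0.74 to 1.25), and Icos was at 0.923 (0.69 to 1.24) without the deep cells. These 5 members thus gave no direction in CD8-positive T cells that held across the choices of cells. Il1rl1 showed 5 and 33 UMIs, but the ENZ count came almost entirely from a single cell that also held mast cell genes, and without such cells it was 5 and 2 UMIs. The counts of members past 1.5-fold in this small class moved between 1 and 4 with the settings.

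In NK cells, a class with 412 cells in the control and 153 in ENZ, Foxp3 was at background with 1 and 0 UMIs. Tnfrsf9, whose product CD137 is an activation receptor of NK cells, had 174 and 352 CPM (2.02, 1.80 to 2.27) there, about the level of the CD8-negative T cells of the same library (170 and 349 CPM). Its NK ratio was 1.45 without cells over 20000 UMIs, and 105 of the 507 ENZ UMIs came from 1 cell. Il2ra had 30 UMIs (7.76 CPM) in control and 76 UMIs (52.8 CPM) in ENZ NK cells, a ratio of 6.81 (4.41 to 10.8), with 64.5% of the ENZ UMIs in 5 cells. The control level (interval 5.24 to 11.1 CPM) was not above free RNA (5.48 CPM) beyond counting error, but it was above control cancer cells (0.22 CPM). The part of free RNA in it was not tested. Without cells over 20000 UMIs the ratio was 4.36 (2.60 to 7.49). Its thinned share of NK cells was 0.97% in the control and 3.27% in ENZ, and the interval of that difference includes 0. Tnfrsf18 had 70.6 and 84.1 CPM (1.19, 0.95 to 1.48) and Ikzf2 124 and 156 CPM (1.26, 1.07 to 1.48) in NK cells, the latter at 1.15 (0.96 to 1.36) without cells over 20000 UMIs.

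DC held little of the T cell receptors. Il10 was at 10.3 CPM in control DC (70 UMIs) and 20.1 CPM in ENZ DC (37 UMIs), a ratio of 1.95 (1.27 to 2.94), and 1.98 without cells over 20000 UMIs. Both levels lie below the free RNA of their library (17.0 and 21.8 CPM) and above the cancer cells (5.64 and 4.29 CPM). The part of free RNA in them was not tested. Tnfrsf9 was at 36.2 and 37.0 CPM in DC (1.02), against 32.6 and 52.9 CPM in free RNA, and Ikzf4 at 7.24 and 13.1 CPM (1.80, 1.06 to 3.0). Foxp3 had 2 and 1 UMIs in DC. The highest Il10 level was in monocytes and macrophages, with 31.3 CPM in the control and 63.1 in ENZ (2.02), and that class held 30.3% and 41.9% of all Il10 UMIs of the quality-filtered cells, against 6.0% and 5.7% in CD8-negative T cells. In the control, the Il10 interval of that class (28.8 to 33.9 CPM) overlapped with that of neutrophils (27.6 CPM, 24.3 to 31.3). The highest Il1rl1 level was in mast cells and basophils, at 191 and 192 CPM. Foxp3, Il2ra, Icos, Ikzf2, Ikzf4, Tnfrsf4 and Tnfrsf18 were highest in CD8-negative T cells in both libraries, although in the control the intervals of Ikzf2 (427 and 409 CPM), Ikzf4 (13 and 9.76 CPM) and Tnfrsf4 (57.0 and 51.8 CPM) overlapped between CD8-negative and CD8-positive T cells, and that of Tnfrsf18 (75.5 CPM) overlapped with NK cells (70.6 CPM).

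Within each library, CD8-negative T cells were compared with CD8-positive T cells. Foxp3 was 6.25-fold higher in CD8-negative cells of the control (2.05 to 31.0) and 10.1-fold in ENZ (4.23 to 31.6), on 3 and 5 UMIs in CD8-positive cells. Those CD8-positive levels (1.83 and 3.36 CPM) were not above free RNA beyond counting error (1.57 and 4.69 CPM), and the part of free RNA in them was not tested. Without cells over 20000 UMIs, 0 and 2 of those UMIs were left. The Foxp3 fold then had a lower bound of 3.91 in the control (4.94 against a floor of 3 counts) and was 23.5 (6.38 to 196) in ENZ. Il2ra was 3.21-fold (2.28 to 4.64) and 3.49-fold (2.80 to 4.41) higher. Il1rl1 was 5.18-fold (2.14 to 16.3) and 3.40-fold (2.37 to 5.02) higher, on 5 and 33 UMIs in CD8-positive cells, where the control level (3.05 CPM) was below free RNA (6.27 CPM). The ENZ value for Il1rl1 rests on the CD8-positive cell with mast cell genes. Without cells holding mast cell genes, 2 Il1rl1 UMIs were left in CD8-positive cells of ENZ, and the folds were 5.17 (2.14 to 16.3) and 55.7 (15.3 to 462). The ENZ level left there (1.36 CPM) lay below free RNA (9.38 CPM) as well. Both denominators rest on few UMIs (5 and 2), so the size of these folds is not read. These 3 of the 10 members were at least 2-fold higher in both libraries, a criterion met by 1.15% of 11375 genes. For Foxp3, and for Il1rl1 without cells holding mast cell genes, the CD8-positive level rests on 5 or fewer UMIs and was not above free RNA beyond counting error. The count of 3 is therefore not read against that share. Il2ra was above free RNA in CD8-positive cells of the control (22.0 against 5.48 CPM) and of ENZ (58.5 against 13.2 CPM). Tnfrsf9 narrowly missed the 2-fold criterion in the control, at 1.97 (2.92 in ENZ), and Il10 in ENZ, at 1.78 (2.76 in the control). Both met it, making 5 members, without cells over 20000 UMIs, and with the Cd4 requirement 8 members did. Shares over all genes under these choices are not given here, so the counts of 5 and 8 are not read against 1.15%. The genes leading this comparison over the whole transcriptome were granzymes (Gzmd, Gzmg, Gzme and Gzmc) together with Trdc, the delta chain of the T cell receptor, and Ncr1, an activating receptor of NK cells, so the CD8-negative gate also held cells with these genes.

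Co-detection with Foxp3 was examined in CD8-negative T cells. A Foxp3 UMI was present in 54 control cells and 91 ENZ cells, most of them with a single Foxp3 UMI (40 and 55 cells), at median depths of 7533 and 4507 UMIs. Cells without a Foxp3 UMI include cells in which it was not captured. Among cells with Foxp3, 55.6% in the control and 50.5% in ENZ had a Cd4 UMI. All 9 other members were higher in the Foxp3-positive cells of both libraries. The control and ENZ ratios were 3.74 and 2.18 for Ikzf2, 3.85 and 2.06 for Il2ra, 4.89 and 2.45 for Tnfrsf4, 3.68 and 2.20 for Tnfrsf9, and 1.98 and 1.74 for Icos. The criterion of at least 2-fold in both libraries was met by 8 of the 9, all but Icos, and by 1.02% of 10747 genes.

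The same order was seen in the shares of cells at equal depth. In ENZ, Ikzf2 was detected in 74.7% of thinned Foxp3-positive cells and 38.1% of the others, Tnfrsf9 in 50.5% and 20.7%, Il2ra in 36.3% and 13.9%, and Tnfrsf4 in 27.5% and 10.9%. In the control, the shares were 64.8% and 30.4% for Ikzf2, 44.4% and 17.0% for Tnfrsf9, 31.5% and 9.86% for Il2ra, and 16.7% and 6.77% for Tnfrsf4. Ikzf4 was rare even in Foxp3-positive cells, at 3.70% in the control and 5.49% in ENZ, and the interval of its difference from the other cells included 0 in the control (-1.20 to 11.4 points) and in ENZ (-2.58 to 8.63 points). The interval for Il10 in ENZ (-0.27 to 11.5 points) included 0 as well. When cells with a Cd4 UMI alone were compared, 2 of the 9 members (Ikzf2 and Tnfrsf9) remained at least 2-fold higher with Foxp3 in both libraries. The share over all genes among those cells is not given here. The ratios there were 2.84 and 1.30 for Il2ra and 1.98 and 1.39 for Tnfrsf4. The intervals of Il1rl1 in the control (0.57 to 2.50) and of Ikzf4 (0.90 to 2.37) and Il10 (0.99 to 3.69) in ENZ included 1.

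**Figure D3:**
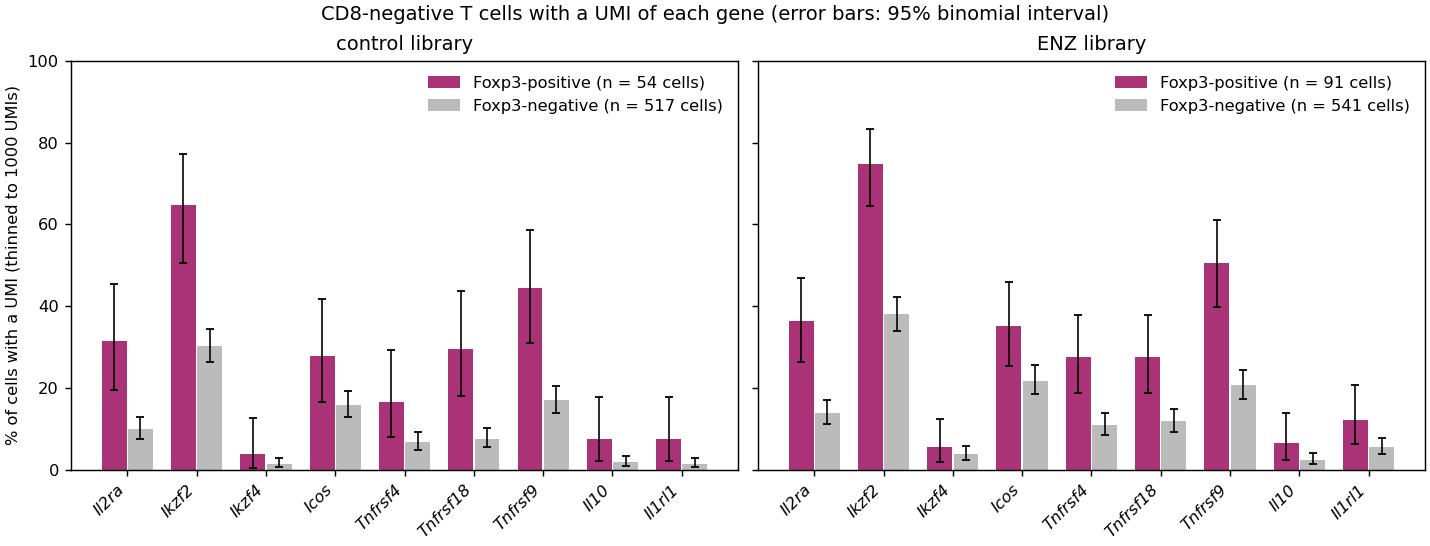
Share of CD8-negative T cells with a UMI of each member, in percent after thinning to 1000 UMIs, for cells with and without a Foxp3 UMI in each library, with 95% Clopper-Pearson intervals. The measured share of every member is higher in Foxp3-positive cells, widest apart for Ikzf2 (64.8% and 30.4% in the control), and the interval of the difference includes 0 for Ikzf4 in both libraries and for Il10 in ENZ.

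Counted per cell, at least 3 of the 9 other members were detected after thinning in 25 of 54 Foxp3-positive control cells (46.3%) and 34 of 517 Foxp3-negative ones (6.58%). In ENZ it was 54 of 91 (59.3%) and 93 of 541 (17.2%). The mean number of members detected was 2.33 against 0.919 in the control and 2.76 against 1.29 in ENZ. The Foxp3-negative cells of the libraries differed in makeup, with a Cd4 UMI in 15.1% of control and 34.4% of ENZ cells and more than 5 UMIs of Lyz2 plus Krt8 in 23.6% and 10.5%. Without the cells rich in Lyz2 or Krt8, 33 of 395 Foxp3-negative control cells (8.35%, 5.82 to 11.5) and 92 of 484 ENZ cells (19.0%, 15.6 to 22.8) reached 3 members. Among Foxp3-negative cells with a Cd4 UMI it was 13 of 78 (16.7%, 9.18 to 26.8) and 45 of 186 (24.2%, 18.2 to 31.0), and those intervals overlap.

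**Figure D4:**
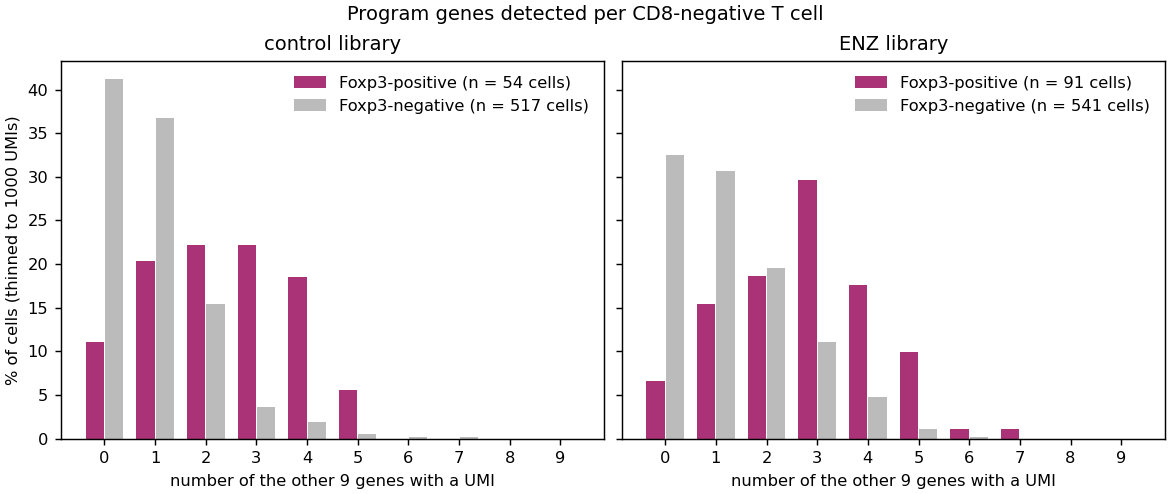
Number of the 9 members besides Foxp3 detected per CD8-negative T cell after thinning to 1000 UMIs, as percent of the cells with and without a Foxp3 UMI in each library. Foxp3-positive cells reach 3 or more in 46.3% (control) and 59.3% (ENZ), Foxp3-negative cells in 6.58% and 17.2%.

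Of all genes ranked by the lower bound of this contrast in the less extreme library, Ikzf2 was number 12, Tnfrsf4 number 15, Tnfrsf9 number 18, Il1rl1 number 29, Tnfrsf18 number 33 and Il2ra number 35. The ranks of Ikzf4, Icos and Il10 are not given here. The first 10 genes were Bmyc (8.54-fold in the control and 4.54-fold in ENZ), Nckap5 (5.87 and 4.53), Rapsn (6.21 and 4.04), Frmd5 (9.24 and 2.93), Ctla4 (5.44 and 2.90), Smpdl3b (4.54 and 5.67), Ncmap, Sdcbp2, Cd200r1 (4.12 and 3.05) and Map2. Ctla4 is a direct target of Foxp3, and Cd200r1 an inhibitory receptor. Of the 34 other program genes tested, 6 met the criterion (Ctla4, Tigit, Lrrc32, Ccr8, Cd27 and Klrg1), and of the 9 ligands and partner chains 0 did.

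Most member transcripts of T cells nevertheless lay outside Foxp3-positive cells. Those cells held 6.93% of the T cell UMIs in the control and 11.5% in ENZ, but between 13.8% (Icos) and 28.2% (Il1rl1) of each other member's T cell UMIs in the control, and in ENZ between 21.3% (Icos) and 27.5% (Il1rl1). Split further, the gate held cells with a Cd4 UMI but no Foxp3 (78 cells, 13.7% of the gate in the control, and 186 cells, 29.4%, in ENZ), cells with NK genes and neither Cd4 nor Foxp3 (87 cells, 15.2%, and 38 cells, 6.01%), and cells with none of these (352 and 317 cells).

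Members were also compared between libraries inside Foxp3-positive cells. Il2ra had 217 CPM in the control and 362 in ENZ (1.67, 1.33 to 2.1), Icos 180 and 325 CPM (1.81, 1.42 to 2.32) and Il1rl1 53.3 and 148 CPM (2.77, 1.81 to 4.35). Ikzf2 had 1287 and 1488 CPM (1.16, 1.05 to 1.28). The intervals of Ikzf4 (1.52), Tnfrsf4 (1.14), Tnfrsf18 (1.20) and Il10 (1.07) included 1. The value of Foxp3 itself in these cells, 131 and 220 CPM, follows partly from how they were chosen.

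In cells with a Cd4 UMI but no Foxp3 UMI, Il2ra had 78.1 CPM in the control and 236 in ENZ (3.02, 2.33 to 3.96), Ikzf4 19.5 and 49.4 CPM (2.53), Icos 118 and 210 CPM (1.78), Tnfrsf9 229 and 352 CPM (1.54) and Il1rl1 29.3 and 95 CPM (3.24, 2.13 to 5.12). Il10 had 24.9 and 23.2 CPM (0.93). Cells with NK genes had little Il1rl1 (3 and 1 UMIs) and Ikzf4 (3 and 1 UMIs), but Ikzf2 at 302 and 557 CPM (1.84), Tnfrsf18 at 61.0 and 131 CPM (2.15) and Tnfrsf9 at 271 and 447 CPM (1.65). In the remaining cells, Il2ra had 63.9 and 167 CPM, Ikzf2 306 and 714 CPM and Il1rl1 10.6 and 53.0 CPM. Il2ra had an interval above 1 in all 4 subsets, as did Ikzf2 and Tnfrsf9, and whether the ratios differed between subsets was not tested.

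Without the cells rich in Lyz2 or Krt8, fewer of these intervals lay above 1. In Foxp3-positive cells Il2ra (1.43, 1.12 to 1.83), Icos (1.46, 1.12 to 1.91) and Il1rl1 (2.88, 1.76 to 4.92) had intervals above 1 and Ikzf2 (1.05, 0.94 to 1.17) and Tnfrsf9 (1.03, 0.87 to 1.22) did not. In cells with a Cd4 UMI but no Foxp3, Il2ra (2.05, 1.47 to 2.92) and Il1rl1 (2.20, 1.31 to 3.90) were still higher in ENZ, whereas Ikzf2 (0.73, 0.64 to 0.84) and Il10 (0.35, 0.14 to 0.87, from 11 and 12 UMIs) were lower. The intervals of Ikzf4 (2.02, 0.99 to 4.65), Icos (1.07, 0.83 to 1.40) and Tnfrsf9 (0.93, 0.76 to 1.14) included 1 in those cells. In cells with NK genes, Il2ra rested on 11 and 12 UMIs (1.80, 0.73 to 4.51), and Tnfrsf9 was at 1.14 (0.94 to 1.39), Tnfrsf18 at 1.48 (1.0 to 2.19) and Ikzf2 at 1.24 (1.03 to 1.49). Without cells over 20000 UMIs, Tnfrsf9 in the cells with NK genes turned to 0.80 (0.60 to 1.06) and Tnfrsf18 was at 1.17 (0.70 to 1.91). In the remaining cells, the ratio of Il2ra came down from 2.61 to 1.32 (1.09 to 1.59) without the cells rich in Lyz2 or Krt8, that of Ikzf2 from 2.33 to 1.38 (1.26 to 1.5) and that of Il1rl1 from 5.0 to 3.42 (2.17 to 5.58), all still above 1. Il10 went the other way there, from 1.49 (0.99 to 2.23) to 2.52 (1.17 to 5.87, from 10 and 25 UMIs). Its direction thus differed between subsets under this choice, on few UMIs.

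**Figure D5:**
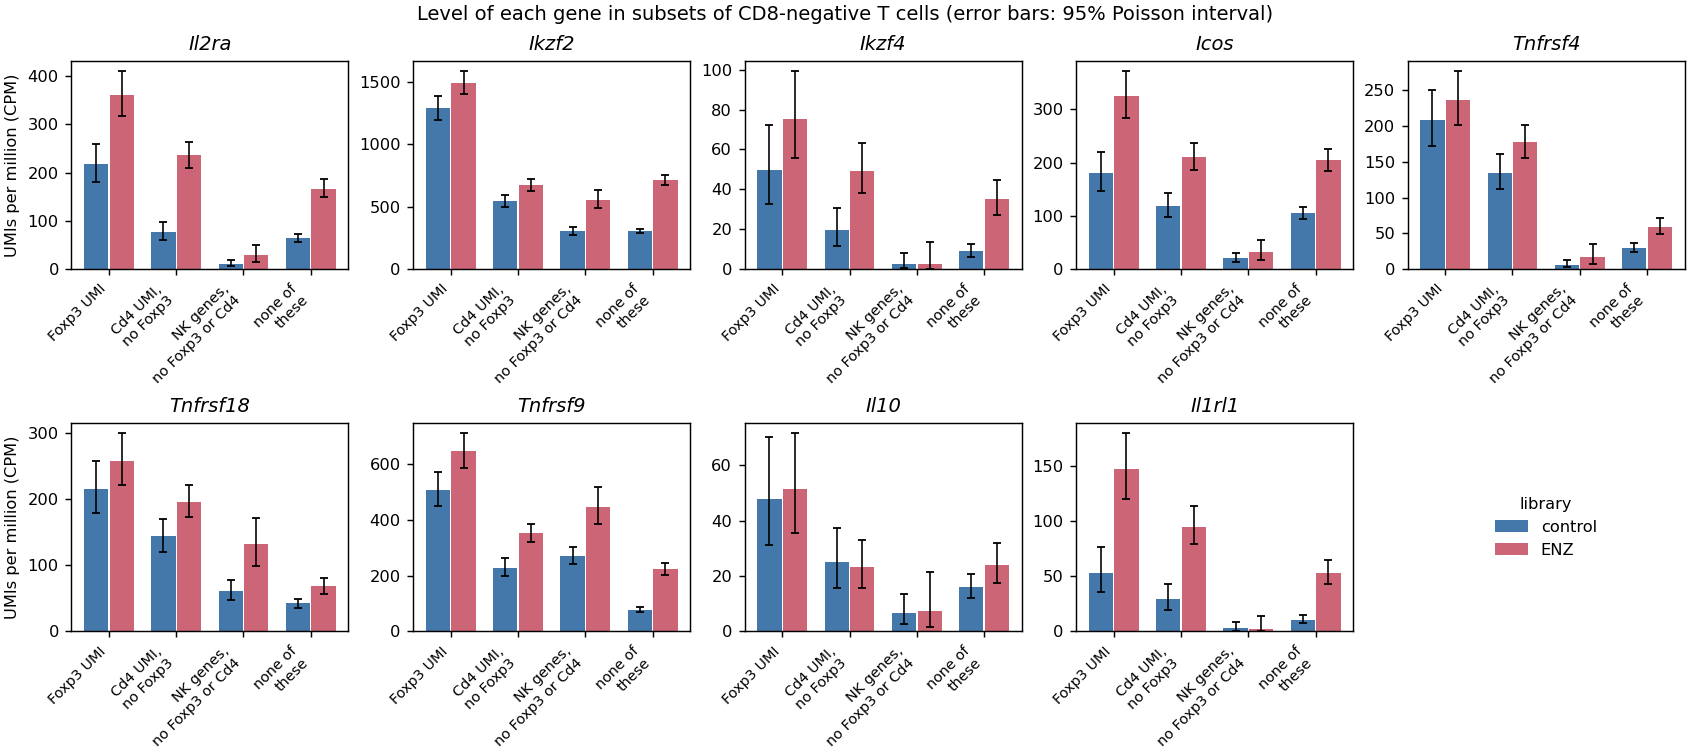
Level of the 9 members besides Foxp3 in CPM in 4 subsets of CD8-negative T cells (a Foxp3 UMI, a Cd4 UMI without Foxp3, NK genes without either, and none of these) in the control and ENZ libraries, with bars for summed UMIs and error bars for 95% Poisson intervals. Ikzf2 is highest in Foxp3-positive cells (1287 and 1488 CPM), and Il1rl1 is higher in ENZ in every subset but the one with NK genes, which held 3 and 1 UMIs.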

How the data were processed

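The deposited files hold raw UMI counts per gene and barcode, 1 matrix per library, which the authors made with Cell Ranger on mm10. The submitters' processing notes name version 2.1.1, whereas the file headers name 7.2.0, and the strand setting is not given in the sources used here. The matrices list 2438568 and 2239744 barcodes, empty droplets included. Cell classes were gated on summed marker UMIs in a fixed order, because no cell annotation was used. The NK, DC and other gates besides the T cell gate were set for this work. UMIs were summed per class and library and expressed as CPM with exact Poisson intervals. Ratios have exact conditional binomial intervals, shares Clopper-Pearson intervals and differences of shares Newcombe intervals. Shares were taken after each cell was thinned once to 1000 UMIs with a fixed seed. Genes needed 50 UMIs over the sums compared to be counted against the limits of 1.5-fold between libraries and 2-fold between subsets. In simulated counts for 10748 genes of the CD8-negative comparison, 95.7% of the intervals held the true ratio and 97% of genes raised 2-fold passed 1.5-fold. The counts were Poisson draws from pooled sums without variation between cells. This checks the calculation and cannot show how the intervals hold where a few cells carry many UMIs. Scrublet (scanpy 1.11.5) scored doublets, marking 3.32% of control and 3.01% of ENZ cells, which were kept except in the alternative without them. Python 3.11.15, numpy 2.4.6, scipy 1.17.1, pandas 2.3.3 and matplotlib 3.10.9 were used. Of the gene identifiers, 32158 of 32285 were found in GENCODE M21, which gave positions.

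The named genes are the 10 members in every class, 36 related and 11 partner genes, and the first 10 genes of the Foxp3 contrast. The members and lists were chosen with earlier results of these data known. The counts without cells over 20000 UMIs or with CD3 UMIs as the denominator, the 4 subsets of CD8-negative T cells the counts without mast cell genes and the lists, subsets and per-cell counts over other choices of cells were added after seeing the data.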

Additional observations from a re-analysis of the deposited data

Results flagged for a closer look

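For 3 members, the ENZ to control ratios of cell classes had counting intervals on either side of 1. Every class whose interval lay below 1 held the gene at a measured level below that of free RNA (droplets with under 100 UMIs). The part of free RNA in those counts was not tested, so the ratios below 1 are not read as a change of expression. The difference between classes was not tested, since each class has 1 library per group. The Ikzf2 ratio was 1.89 in CD8-negative T cells, 1.23 in CD8-positive T cells, 1.26 in NK cells and 1.22 in monocytes and macrophages, and the ratio was 0.737 in fibroblasts. Fibroblasts (32.7 and 24.1 CPM) and monocytes and macrophages (14.4 and 17.6 CPM) held Ikzf2 below free RNA (34.7 and 40.8 CPM). In control fibroblasts the Ikzf2 interval (29.7 to 35.8 CPM) held the free RNA level. Without cells over 20000 UMIs its ratio was 1.01 (0.89 to 1.15) in CD8-positive T cells, 1.15 (0.96 to 1.36) in NK cells and 1.17 (0.94 to 1.45) in monocytes and macrophages, and without cells rich in Lyz2 or Krt8 it was 0.821 in CD8-positive T cells. Tnfrsf18 was higher in ENZ in CD8-negative T cells (1.88) and the ratio was 0.608 in monocytes and macrophages (4.09 and 2.49 CPM) and 0.752 in cancer cells (1.79 and 1.35 CPM), against 14.1 and 13.8 CPM in free RNA. Without cells over 20000 UMIs the monocyte and macrophage interval of Tnfrsf18 (0.39 to 1.02) included 1. The Il10 ratio was 1.42 in CD8-negative T cells, 2.21 in CD8-positive T cells, 1.95 in DC, 2.02 in monocytes and macrophages and 0.761 in cancer cells. Free RNA held Il10 at 17.0 and 21.8 CPM, above CD8-positive T cells (6.71 and 14.8 CPM), DC (10.3 and 20.1 CPM) and cancer cells (5.64 and 4.29 CPM), close to CD8-negative T cells (18.5 and 26.3 CPM) and below monocytes and macrophages (31.3 and 63.1 CPM). In CD8-negative T cells Il10 was at 0.815 among cells with a Cd4 UMI and 0.978 per CD3 UMI, and without cells over 20000 UMIs it was 1.16 (0.86 to 1.58), against 1.29 (0.49 to 3.77) in CD8-positive T cells and 0.899 (0.67 to 1.21) in cancer cells.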

How the results depend on the processing

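No paired analysis was possible because each group has 1 library. Over 12 alternatives, the 10 members gave 120 ENZ to control ratios in CD8-negative T cells, of which 118 were over 1, 71 lay inside the interval of the reported ratio and 47 moved outside it without a change of direction. Il10 turned to 0.815 among cells with a Cd4 UMI and 0.978 per CD3 UMI. The Foxp3 ratio moved from 2.97 to 1.20 with Cd4 required, 1.95 without cells rich in Lyz2 or Krt8, 2.04 without cells over 20000 UMIs and 2.05 per CD3 UMI. The count of members past 1.5-fold was 9 as reported and 4 in each of those 4 settings and when cells were weighted equally, and at a 2-fold limit it was 7. Of all genes, 15.7% were 1.5-fold higher with Cd4 required, 10.5% without cells rich in Lyz2 or Krt8 and 11.7% without cells over 20000 UMIs. Shares over all genes for the other settings are not given here. The difference in Foxp3 shares was 4.94 points without thinning, against 2.44 after it, and 0.91 points with Cd4 required.

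In CD8-positive T cells, 96 of 110 ratios stayed inside the reported interval and 9 moved outside it. A further 5, all of members whose reported interval lay above 1, turned below 1, to 0.821 (Ikzf2) and 0.958 (Tnfrsf9) without cells rich in Lyz2 or Krt8, to 0.923 (Icos) without cells over 20000 UMIs, to 0.944 (Icos) when cells were weighted equally and to 0.920 (Ikzf2) per CD3 UMI. Tnfrsf4 and Tnfrsf18, whose reported intervals included 1, also turned below 1 in 4 alternatives each, at the lowest to 0.528 and 0.661, Ikzf4 (0.896) turned to 1.13 without doublets, and Foxp3 had too few UMIs there to give a direction. The count past 1.5-fold there was 1, but 3 without doublets, 3 without cells rich in Lyz2 or Krt8 (1 higher and 2 lower in ENZ), 2 without cells over 20000 UMIs, 3 with a minimum of 20 UMIs per gene and 4 with none. The count of members higher in CD8-negative than in CD8-positive T cells was 3, but 8 with Cd4 required, 5 without doublets, without cells rich in Lyz2 or Krt8, without cells over 20000 UMIs or when cells were weighted equally, and 6 at a 1.5-fold limit. The count higher with Foxp3 was 8 of 9, but 2 with Cd4 required. Shares over all genes under these alternatives are not given here, so the counts are not read against them. The causes were not tested. Depth limits the rarer members in CD8-negative T cells, where Foxp3 had 71 and 146 UMIs, Ikzf4 81 and 183, Il1rl1 98 and 324 and Il10 115 and 113.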
